A study of Mus musculus with 12 samples.

Results

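The 10 genes described here mark the epicardium and the mesothelium: Wt1, Tcf21, Bnc1, Aldh1a2, Upk3b, Upk1b, Msln, Krt8, Krt18 and Krt19. They were taken by gene symbol from a table of 21783 genes that gives read counts for RNA and for ribosome footprints (short RNA stretches protected by ribosomes from RNase I) in hearts dissected from female mouse embryos at embryonic day 10.5. All 10 symbols were found, and 9 of the 10 had values in all 6 pools of hearts. Msln was blank in WT pool 2. The Ddx3x CM-KO hearts lacked the RNA helicase gene Ddx3x in cells that had expressed Cre under the Tnnt2 promoter. Tnnt2 encodes cardiac troponin T, and the promoter is used to target cardiomyocytes. The WT hearts carried floxed Ddx3x alleles (Ddx3x fl/fl), and the embryos of both genotypes were typed for Sry, Ddx3x and Tnnt2-Cre. There were 3 pools of 20 hearts per genotype, and an RNA and a footprint library were made from every pool, 12 libraries in all.

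The epicardium is the mesothelial cell layer that comes to cover the heart from the proepicardium, a cell cluster near the liver bud. Some of its cells enter the myocardium through an epithelial-to-mesenchymal transition and give rise to fibroblasts and mural cells of the coronary vessels. It also makes retinoic acid and growth factors that act on the myocardium beneath. Mesothelial cells form sheets held by keratin filaments of the simple-epithelium type, built as pairs of one type I and one type II keratin.

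The pools hold every cell type of the heart, so the counts do not say which cells a transcript came from. Fewer epicardial cells and less RNA per cell also cannot be told apart. Nothing in the labels says whether the pools of one genotype came from separate litters, so the p-values measure the spread between these pools, which may in part be technical. Total counts per library ran from 14664486 to 19894094 in RNA and from 7314972 to 14343747 in footprints. Ddx3x RNA was at 280.1, 215.3 and 220.9 CPM (counts scaled to a common library size by TMM, the unit of every level below) in CM-KO pools 1 to 3 and at 293.0, 303.4 and 310.7 CPM in the WT pools. The CM-KO pools lay below the WT pools, with much of the transcript still counted. Ddx3y, a Y-linked gene, had RNA counts of 106, 64 and 4 in CM-KO pools 1 to 3, against 2, 2 and 0 in the WT pools. CM-KO pools 1 and 2, labelled female, thus held Y-linked reads. RNA of Afp, a secreted protein of yolk sac and liver, was at 90.04, 20.2 and 219.8 CPM in the CM-KO pools and at 49.59, 258.7 and 305.0 CPM in the WT pools. Afp differed more within each genotype than between the genotypes.

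Promoter sequences are shown for 3 of the genes: Krt8 and Krt18, which are partners in the same filament, lie near each other on chromosome 15 and of which Krt8 alone was called between the genotypes, and Aldh1a2, which held a match to the GC-rich core bound by WT1. The sequences are RefSeq's in the build GRCm39, each written along its own gene's strand over the 250 bases before the RefSeq start and the first 30 bases after it. They lie at chr15:101912748-101913027 (minus strand) for Krt8, chr15:101936401-101936680 (plus strand) for Krt18 and chr9:71122821-71123100 (plus strand) for Aldh1a2. The GENCODE vM39 annotation begins these 3 genes further upstream than RefSeq does. The Aldh1a2 window thus lies wholly inside its GENCODE gene, and the Krt8 and Krt18 windows partly inside theirs. Capitals mark matches to the motifs searched on both strands.
Krt8: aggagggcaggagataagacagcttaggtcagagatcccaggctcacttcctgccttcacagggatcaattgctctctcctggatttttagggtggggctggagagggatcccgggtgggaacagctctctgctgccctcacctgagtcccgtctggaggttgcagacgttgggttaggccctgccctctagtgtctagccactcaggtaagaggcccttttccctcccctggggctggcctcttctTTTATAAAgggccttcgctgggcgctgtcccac
Krt18: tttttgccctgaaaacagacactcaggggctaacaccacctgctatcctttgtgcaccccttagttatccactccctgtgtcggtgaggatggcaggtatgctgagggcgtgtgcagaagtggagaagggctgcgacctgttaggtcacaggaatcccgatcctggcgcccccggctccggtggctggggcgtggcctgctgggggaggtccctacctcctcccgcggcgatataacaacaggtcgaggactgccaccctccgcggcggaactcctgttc
Aldh1a2: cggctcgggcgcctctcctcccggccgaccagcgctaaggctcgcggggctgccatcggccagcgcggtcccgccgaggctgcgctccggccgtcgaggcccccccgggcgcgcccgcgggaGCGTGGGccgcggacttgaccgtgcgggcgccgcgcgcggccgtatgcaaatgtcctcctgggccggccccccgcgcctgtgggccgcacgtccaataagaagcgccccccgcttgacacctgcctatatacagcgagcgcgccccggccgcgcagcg
The motifs were the TATA box (TATAAA), the GC box (GGGCGG), the core shared by WT1 and EGR factors (GCGTGGG), the E-box bound by TCF21 (CAGCTG) and the TEAD core (GGAATG). Of the 10 genes, 6 had an entry in the RefSeq promoter table: Tcf21, Bnc1, Aldh1a2, Upk3b, Krt8 and Krt18. The Krt8 window held 2 overlapping TATA box matches, one on each strand, across the RefSeq start itself, and the Krt18 window held no match to any of the 5 motifs. The 30 bases after the start were added after the Krt8 sequence had been seen, and the 250 bases before it alone hold no TATA box. A TATA box match was found in 13.1% of the 32851 RefSeq promoter windows of this length. The WT1 and EGR core in the Aldh1a2 window lay 128 to 122 bases before the start, and 4.76% of all windows held one. The Bnc1 window held 5 GC boxes, and 34.7% of all windows held at least 1. GC content was 77.9% in the Aldh1a2 window and 82.9% in the Bnc1 window, against a median of 52.5% over all windows. The shares were not matched for GC content. The Upk3b window held 1 TEAD core, found in 13.9% of all windows. The E-box was in none of the 6 windows and in 14.9% of all windows. These matches describe letters and were not tested as binding sites.

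All but 1 of the markers were well measured at this stage. Per kilobase of the annotated transcript, Upk3b had the highest RNA level, 39.7 ± 4.29 CPM per kb in CM-KO hearts and 38.8 ± 0.954 in WT hearts (SD, n = 3 each). Krt19 stood at 38.0 ± 11.7 in CM-KO and 27.4 ± 12.1 CPM per kb in WT hearts, Krt18 at 31.4 ± 0.996 and 29.2 ± 3.52, Wt1 at 29.99 ± 3.35 and 28.1 ± 1.75, and Tcf21 at 21.0 ± 1.47 and 22.7 ± 1.63. Krt18 and Wt1 were within their spreads of each other in both genotypes, and in WT hearts the wide spread of Krt19 overlapped those of Upk3b, Krt18, Wt1 and Tcf21. Below them came Krt8 (19.2 ± 1.19 CPM per kb in CM-KO and 14.6 ± 1.57 in WT), Upk1b (13.3 ± 0.964 and 11.97 ± 1.11), Aldh1a2 (9.54 ± 1.44 and 9.51 ± 0.755) and Bnc1 (6.30 ± 0.987 and 6.83 ± 0.481). The WT spreads of Krt8 and Upk1b touched, while those of Upk1b, Aldh1a2 and Bnc1 did not. Msln was far below the rest, at 0.398 ± 0.0286 CPM per kb in 3 CM-KO pools and 0.272 ± 0.00695 in the 2 WT pools with a value.

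**Figure D1:**
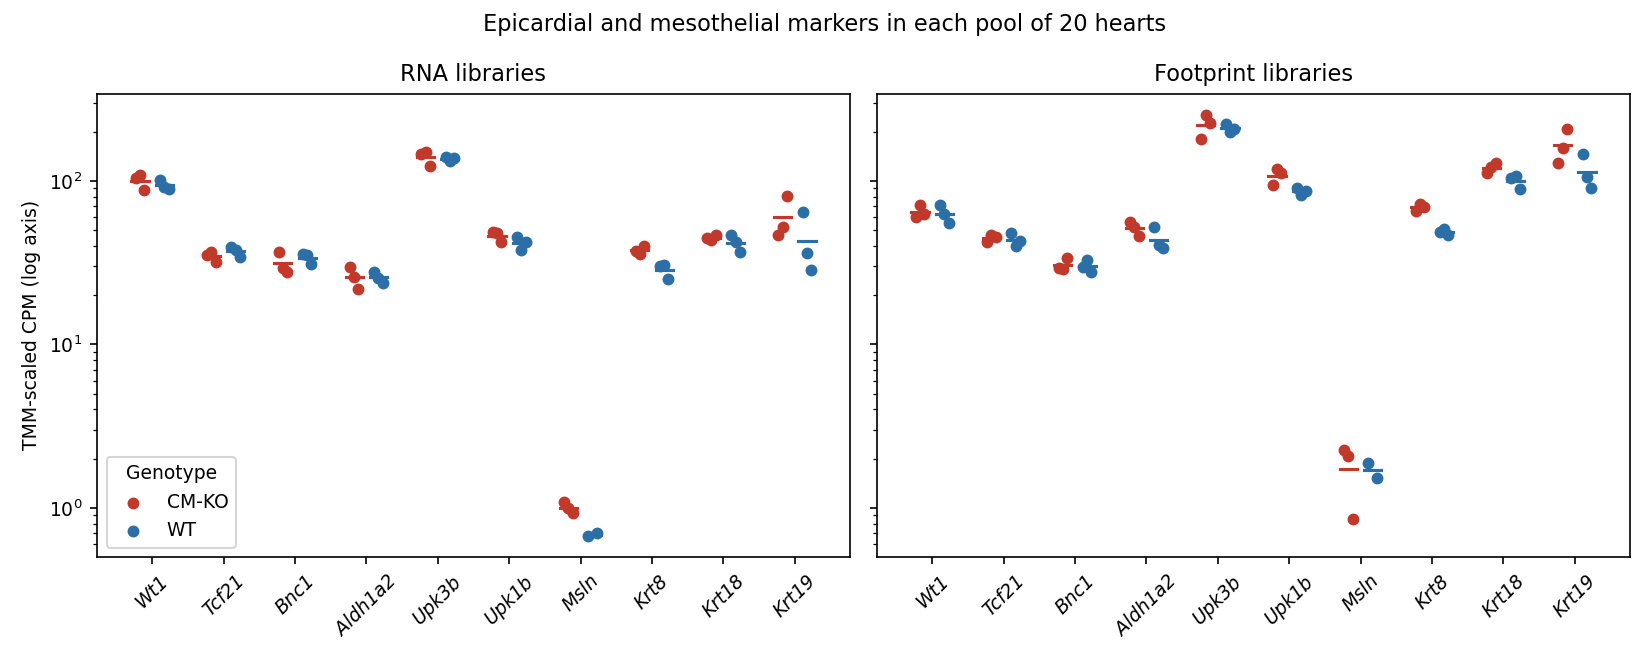
RNA level (left) and footprint level (right) of the 10 markers in TMM-scaled CPM on a log axis, 1 point per pool of 20 hearts and a bar at each mean, with CM-KO left of WT for each gene. Msln lies near 1 CPM in both assays, and the CM-KO points stand clear of the WT points for Krt8 in both panels.

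Between the genotypes, 1 of the 9 tested markers changed in RNA and 1 of 9 in footprints, and it was Krt8 both times, higher in CM-KO hearts. The call was made by edgeR's quasi-likelihood test with Benjamini-Hochberg adjustment over all genes tested, at an adjusted p under 0.05. By the same rule 4.37% of all genes tested in RNA were called, 3.57% as higher in CM-KO, and 0.23% of all genes tested in footprints, 0.0853% as higher. The median log2 fold change (CM-KO over WT throughout) of the 9 markers was 0.09 in RNA and 0.23 in footprints, against 0.01 and -0.01 over all genes tested. All 9 footprint estimates were above 0, running from 0.03 to 0.53. With 1 pool left out, those of Wt1, Tcf21, Upk3b and Bnc1 went as low as -0.050, -0.017, -0.045 and -0.050. The 9 estimates come from the same libraries and are not independent. Groups of pools that did not overlap were found for 1 of the 9 markers in RNA (Krt8) and for 3 of 9 in footprints (Krt8, Krt18 and Upk1b), always with CM-KO above WT. Over all genes tested, 21.7% did not overlap in RNA and 13.9% in footprints, so 1 of 9 in RNA is near the background. The 3 of 9 in footprints lie above it, in a set of 9 genes, and no test was made of either share.

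**Figure D2:**
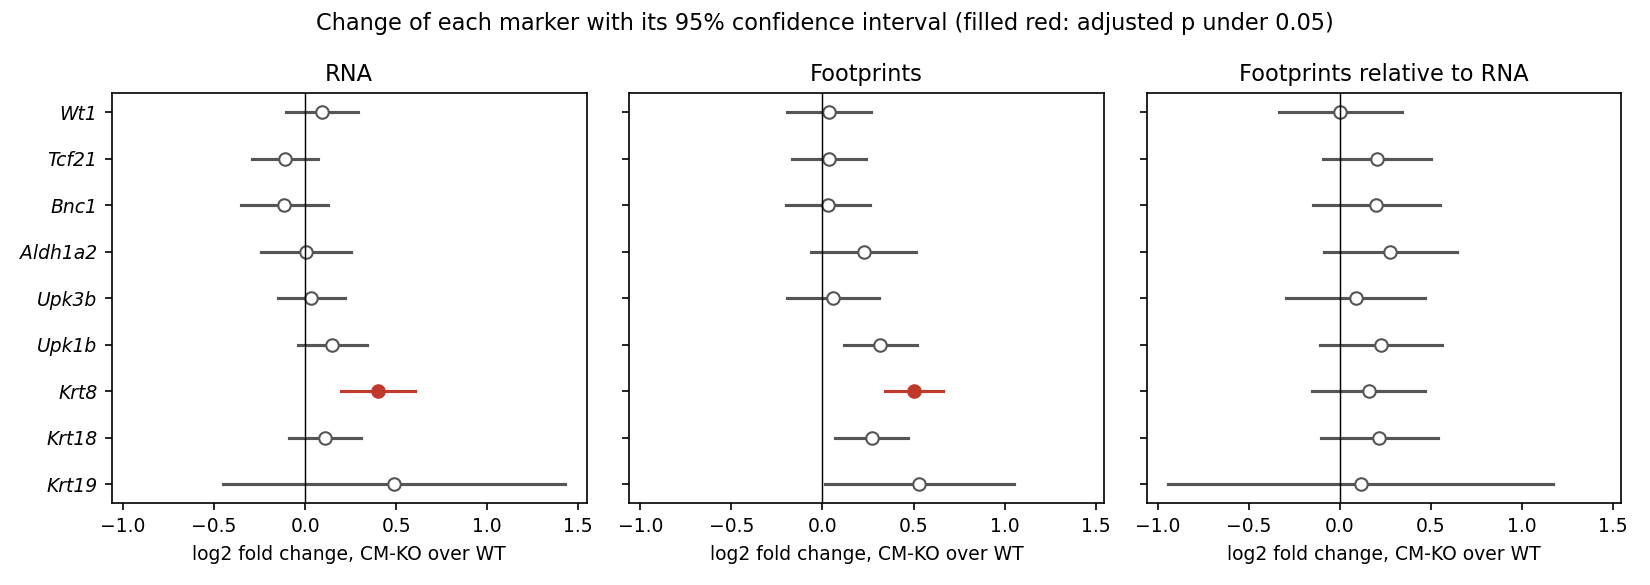
Log2 fold change of the 9 tested markers, CM-KO over WT, in RNA, in footprints and in footprints relative to RNA, with 95% confidence intervals from edgeR's quasi-likelihood fit. Krt8 is the marker called in RNA (0.40) and in footprints (0.50), no marker is called in the right panel, and the interval of Krt19 is the widest in the RNA panel.

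The transcription factors of the epicardium did not pass the test in any comparison. Wt1 (chr2:104956625-105003961, plus strand, 10 exons in the GENCODE vM39 annotation of GRCm39) encodes a zinc-finger factor required for the epicardium and its mesenchymal transition. Wt1 RNA was at 104.2, 109.0 and 87.62 CPM in CM-KO pools 1 to 3, against 100.7, 91.44 and 89.91 CPM in the WT pools. CM-KO pool 3 was the lowest of the 6 and CM-KO pools 1 and 2 were the highest, so the groups overlapped. The log2 fold change was 0.09 (SE 0.09, 95% interval -0.10 to 0.29, adjusted p = 0.748, edgeR). Wt1 footprints averaged 64.7 ± 5.63 CPM in CM-KO and 62.9 ± 7.89 CPM in WT hearts (SD, n = 3 each), and the footprint log2 fold change was 0.04 (adjusted p = 0.958, edgeR). The antisense gene Wt1os overlaps Wt1 and had 216, 223 and 222 RNA counts in CM-KO pools and 212, 255 and 242 in WT pools. No source used here says whether counting was stranded, so reads of this pair may be shared.

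Tcf21 (chr10:22692803-22696073, minus strand, 2 exons) encodes a basic helix-loop-helix factor of epicardial cells that become fibroblasts. Its RNA was at 35.13, 36.63 and 31.89 CPM in CM-KO pools and 39.62, 37.93 and 34.38 CPM in WT pools. The ranges overlapped (log2 fold change -0.11, 95% interval -0.29 to 0.07, adjusted p = 0.635, edgeR). Tcf21 footprints averaged 44.9 ± 2.46 CPM in CM-KO and 43.5 ± 4.12 CPM in WT hearts (SD, n = 3 each). The antisense gene Gm10824 overlaps Tcf21 and had 57, 51 and 59 RNA counts in CM-KO pools and 72, 49 and 52 in WT pools. As for Wt1, reads of this pair may be shared. Bnc1 (chr7:81616401-81642341, minus strand, 5 exons), for the zinc-finger factor basonuclin 1, had RNA at 36.9, 29.21 and 27.8 CPM in CM-KO pools and 35.57, 35.01 and 31.18 CPM in WT pools. CM-KO pool 1 was the highest of the 6 and CM-KO pools 2 and 3 were the lowest. The log2 fold change of Bnc1 was -0.11 in RNA (95% interval -0.35 to 0.12, adjusted p = 0.742, edgeR) and 0.03 in footprints. For these 3 factors the RNA intervals together span -0.35 to 0.29 on the log2 scale.

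Aldh1a2 encodes the retinaldehyde dehydrogenase that makes retinoic acid in the embryo, and lies at chr9:71122630-71203527 (plus strand, 14 exons). Its RNA was at 29.74, 25.7 and 21.96 CPM in CM-KO pools and 27.83, 25.59 and 23.75 CPM in WT pools. The CM-KO values enclosed the WT values, and the log2 fold change was 0.01 (95% interval -0.24 to 0.25, adjusted p = 0.993, edgeR). Its footprints were at 56.35, 52.66 and 45.96 CPM in CM-KO pools and 52.07, 40.45 and 38.92 CPM in WT pools. The ranges overlapped there too (log2 fold change 0.23, 95% interval -0.06 to 0.51, adjusted p = 0.692, edgeR). Of 20 genes for carriers, enzymes, receptors and targets of retinoic acid, 18 were tested and none was called in RNA, footprints or occupancy. The shares called over all genes tested were 4.37%, 0.23% and 0.479%, so no call among 18 genes is near the background. Their median log2 fold change was 0.01 in RNA and -0.09 in footprints. The homeobox genes Meis2 and Meis1 had the most RNA of that list. Meis2 RNA was at 398.3, 353.4 and 317.9 CPM in CM-KO pools and at 348.7, 321.7 and 360.6 CPM in WT pools, with overlapping ranges. Meis1 RNA was at 271.3, 237.8 and 209.7 CPM in CM-KO pools and at 229.2, 232.8 and 267.8 CPM in WT pools.

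The uroplakins are membrane proteins of the urothelium, and Upk3b and Upk1b are also made by mesothelial cells. Upk3b (chr5:136067350-136075342, plus strand, 6 exons) had RNA at 146.0, 151.5 and 123.0 CPM in CM-KO pools and 139.9, 133.3 and 137.4 CPM in WT pools. As for Wt1, CM-KO pools 1 and 2 were the highest and CM-KO pool 3 the lowest of the 6. The log2 fold change was 0.03 in RNA (95% interval -0.15 to 0.22, adjusted p = 0.942, edgeR) and 0.06 in footprints (adjusted p = 0.936). Upk1b (chr16:38591981-38620727, minus strand, 8 exons) had RNA at 48.7, 47.95 and 42.52 CPM in CM-KO pools and 45.28, 37.66 and 42.61 CPM in WT pools. Upk1b footprints were at 94.3, 118.0 and 111.6 CPM in CM-KO pools, against 91.0, 81.58 and 86.45 CPM in WT pools. The footprint groups did not overlap, while the RNA groups did. The footprint log2 fold change of Upk1b was 0.32 (SE 0.09, 95% interval 0.12 to 0.52), and it did not pass adjustment (adjusted p = 0.275, edgeR). Msln (chr17:25967312-25985619, minus strand, 16 exons), for the mesothelial surface protein mesothelin, had 17, 15 and 16 RNA counts in CM-KO pools and 10 and 14 in WT pools 1 and 3. It was too low to say more, and with the blank read as 0 its RNA log2 fold change was 1.10 with an SE of 1.46 (adjusted p = 0.956, edgeR).

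Krt8, the type II keratin of simple epithelia, was the marker that changed. It lies at chr15:101905133-101912917 (minus strand, 9 exons). Krt8 RNA was at 37.09, 35.63 and 40.19 CPM in CM-KO pools, against 30.18, 30.52 and 25.05 CPM in WT pools. Every CM-KO pool lay above every WT pool. RNA rose by a log2 fold change of 0.40 (SE 0.09, 95% interval 0.20 to 0.60, adjusted p = 0.0349, edgeR). Footprints of Krt8 were at 65.5, 72.16 and 69.15 CPM in CM-KO pools, against 48.51, 50.53 and 46.54 CPM in WT pools. Again no pool crossed over, and the gap between the groups was several times the spread within either. Footprints rose by a log2 fold change of 0.50 (SE 0.07, 95% interval 0.34 to 0.66, adjusted p = 0.0315, edgeR). In the authors' deposited table the log2 fold change of Krt8 is 0.39 for RNA and 0.50 for footprints, with adjusted p-values of 0.0285 and 0.00149.

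Both calls sat near the threshold. Over 15 alternative settings the Krt8 estimate stayed between 0.29 and 0.49 in RNA and between 0.48 and 0.54 in footprints, but the call was kept in 3 of the 15 for RNA and in 8 of the 15 for footprints. Leaving out CM-KO pool 3 gave 0.35 in RNA (adjusted p = 0.13, edgeR) and 0.50 in footprints (adjusted p = 0.161). Leaving out WT pool 2 gave 0.44 (adjusted p = 0.102, edgeR) and 0.53 (adjusted p = 0.257). Both calls were also lost without CM-KO pool 2 (adjusted p = 0.0876 in RNA and 0.0849 in footprints, edgeR) and without WT pool 3 (adjusted p = 0.0662 and 0.122), and the RNA call without CM-KO pool 1 (adjusted p = 0.0623). Leaving out both CM-KO pools with Y-linked reads gave 0.49 in RNA (adjusted p = 0.218, edgeR) and 0.51 in footprints (adjusted p = 0.0912), from the 1 CM-KO pool left. A processed pseudogene of Krt8, Krt8-ps, is 98.6% identical over 941 bases and is not in the table, so the authors' assignment of its reads is not known here.

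Krt18, the type I partner of Krt8, lies at chr15:101936615-101940462 (plus strand, 7 exons). Krt18 RNA was at 44.83, 43.78 and 46.61 CPM in CM-KO pools and 46.69, 42.47 and 36.62 CPM in WT pools. WT pool 1 was the highest of the 6, and the log2 fold change was 0.11 (95% interval -0.09 to 0.30, adjusted p = 0.683, edgeR). Krt18 footprints were at 112.0, 121.7 and 128.6 CPM in CM-KO pools, against 104.5, 106.6 and 89.05 CPM in WT pools. The footprint groups did not overlap, but the log2 fold change of 0.27 (95% interval 0.07 to 0.47) did not pass adjustment (adjusted p = 0.376, edgeR). A processed pseudogene, Gm5200, is 90.2% identical to Krt18 over 1269 bases and is not in the table.

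The balance of the 2 partners can be read within each library, where scaling and depth cancel. The log2 ratio of Krt8 to Krt18 RNA was -0.273, -0.297 and -0.214 in CM-KO pools, against -0.629, -0.477 and -0.548 in WT pools. In footprints it was -0.773, -0.755 and -0.895 in CM-KO pools, against -1.11, -1.08 and -0.936 in WT pools. Every CM-KO pool held relatively more Krt8 than every WT pool in both assays. The differences were 0.29 in RNA and 0.23 in footprints, each with p = 0.1 by a two-sided exact permutation test, the smallest p that 3 pools against 3 allow. Krt8 was set in the same way against Wt1 and Upk3b, other markers of the set, though the cells that made each transcript are not known here. Its footprint ratio to Wt1 was higher in every CM-KO pool, by 0.46 log2 units (exact permutation p = 0.1), while its RNA ratio to Wt1 was higher by 0.31 with overlapping pools (exact permutation p = 0.2). Against Upk3b the ratio was higher by 0.37 in RNA and by 0.45 in footprints, without overlap (exact permutation p = 0.1 each). Krt18 to Wt1 differed by 0.02 in RNA (exact permutation p = 1.0) and by 0.23 in footprints (exact permutation p = 0.1). Krt19 to Wt1 differed by 0.43 in RNA with overlapping pools (exact permutation p = 0.4). In footprints it differed by 0.49, without overlap (exact permutation p = 0.1). In all, 10 such ratios were compared, and the lowest Benjamini-Hochberg adjusted value was 0.143. A design of 3 pools against 3 cannot pass 0.05 in this test, and the ratios with Krt8 use the same values as its call, so they describe that difference and add no separate test of it.

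Krt19, a type I keratin of simple epithelia, varied most between pools of the same genotype. It lies at chr11:100031636-100039491 (minus strand, 6 exons). Krt19 RNA was at 46.67, 51.93 and 81.02 CPM in CM-KO pools and 64.68, 36.36 and 28.59 CPM in WT pools. CM-KO pool 3 and WT pool 1 were the highest, and the groups overlapped. Its coefficient of variation in RNA was 30.9% in CM-KO and 44.0% in WT hearts, against 2.46% to 15.7% over both genotypes for the other 8 tested markers. Krt19 footprints followed the same order of pools within each genotype, at 128.7, 159.8 and 208.4 CPM in CM-KO pools and 146.3, 105.4 and 91.11 CPM in WT pools. The log2 fold change was 0.49 in RNA (SE 0.37, 95% interval -0.45 to 1.43, adjusted p = 0.679, edgeR) and 0.53 in footprints (SE 0.22, adjusted p = 0.55). With 1 pool left out, these estimates ran from 0.20 (without CM-KO pool 3) to 0.89 (without WT pool 1) in RNA and from 0.33 to 0.76, without the same pools, in footprints. They were the highest estimates among the 9 markers with all pools in, but without CM-KO pool 3, WT pool 2 or WT pool 3 the estimates of Krt8 were higher in both assays.

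The genes with the pattern most like that of Krt19 were listed. Among the 2126 genes with a level above 1 CPM in all 12 libraries and a standard deviation of at least 0.3 log2 units, the 10 with the pattern most like Krt19, after each assay was centred, had a Pearson r of 0.94 to 0.97 over the 12 libraries. They were Ddit4, Ankrd37, A2m, Ndufa4l2, H2-Ab1, Egln3, Ier3, Bhlhe40, P4ha2 and Ndrg1. This search was made after the spread of Krt19 had been seen, the RNA and footprint library of a pool share the same hearts, and the r values are given as a description only, with no enrichment tested. Ddit4, Ankrd37, Ndufa4l2, Egln3, Bhlhe40, P4ha2 and Ndrg1 are known to be induced in hypoxia. The others are A2m, a protease inhibitor, H2-Ab1, a class II histocompatibility gene, and Ier3, an immediate early gene. Egln3, the oxygen-sensing prolyl hydroxylase 3, had RNA at 24.67, 26.76 and 54.85 CPM in CM-KO pools and 33.28, 17.15 and 12.77 CPM in WT pools. Ddit4, an inhibitor of mTORC1 signalling, had RNA at 22.7, 25.23 and 33.59 CPM in CM-KO pools and 25.6, 13.26 and 11.33 CPM in WT pools. Both genes thus placed the pools in the order that Krt19 did, CM-KO pool 3 first and WT pool 3 last.

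**Figure D3:**
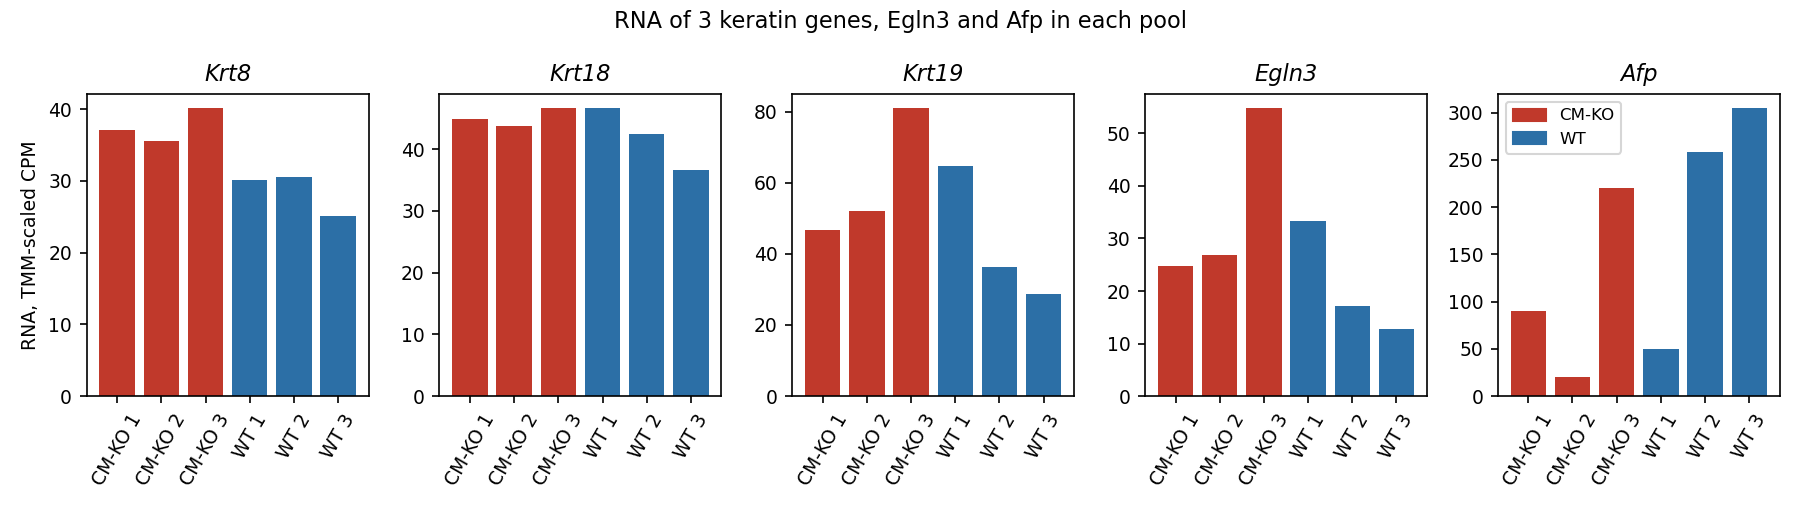
RNA of Krt8, Krt18, Krt19, Egln3 and Afp in each pool, in TMM-scaled CPM with a separate linear axis from 0 for each gene, CM-KO pools left of WT pools. Krt19 and Egln3 are both highest in CM-KO pool 3 and lowest in WT pool 3, and Afp is high in CM-KO pool 3 and in WT pools 2 and 3.

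Pearson's r with Egln3 RNA over the 6 RNA libraries, again a description, was 0.991 for Krt19, to which Egln3 had been matched. It was 0.867 for Krt18, 0.795 for Krt8, 0.274 for Upk1b and 0.0491 for Wt1, and ran from -0.358 to -0.174 for Tcf21, Upk3b, Aldh1a2 and Bnc1. These libraries also share genotype, Egln3 was higher on average in the CM-KO pools, and no difference between these r values was tested. When the log2 Egln3 level of each pool was added to the fit, a choice made after seeing the data, Krt8 was called in neither assay. Its estimates were then 0.29 in RNA (adjusted p = 0.111, edgeR) and 0.48 in footprints (adjusted p = 0.254), and the part of Egln3 in the Krt8 result was not tested apart from genotype. For Krt19 that fit says nothing, since Egln3 was picked to match it.

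Ribosome occupancy, the footprint level relative to the RNA level, was described first within each genotype. In WT hearts the log2 ratio of footprint CPM to RNA CPM was -0.587 ± 0.106 for Wt1 and -0.173 ± 0.075 for Bnc1, at the 44.7 and 62.7 percentile of 15228 genes (SD, n = 3). It was 0.221 ± 0.129 for Tcf21 (76.8 percentile) and 0.621 ± 0.0502 for Upk3b (86.4 percentile). It was highest for the keratins and Upk1b, at 1.46 ± 0.255 for Krt19 (97.7 percentile), 1.26 ± 0.0853 for Krt18 (96.1), 1.05 ± 0.059 for Upk1b (93.6) and 0.769 ± 0.111 for Krt8 (89.3), followed by Aldh1a2 at 0.759 ± 0.128 (89.1). The filament, membrane and enzyme genes thus carried more footprints per RNA than the 3 transcription factors. Footprints fall in coding sequence while RNA reads cover the whole transcript. The coding part is 46.4% of the Wt1 transcript, 32.7% of that of Tcf21, 59.8% of that of Bnc1, 75.1% of that of Krt8, 88.3% of that of Krt18, 76.7% of that of Krt19, 57.4% of that of Aldh1a2, 22.3% of that of Upk1b and 23.4% of that of Upk3b. The part of coding share in these ratios was not tested.

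Between genotypes no marker was called in occupancy, where 0.479% of all 15231 genes tested were called by edgeR's interaction of genotype and assay. No marker had an unadjusted p under 0.05 in that test, DESeq2 also called none, and the estimates ran from 0.00 for Wt1 to 0.28 for Aldh1a2, with a median of 0.20 against 0.03 over all genes. The log2 ratio of Aldh1a2 was 0.922, 1.04 and 1.07 in CM-KO pools, against 0.904, 0.66 and 0.713 in WT pools. Aldh1a2 was the marker whose CM-KO pools all lay above the WT pools, by a narrow gap to WT pool 1, and its interval included 0 (-0.09 to 0.64, adjusted p = 0.943, edgeR). Of the 15228 genes with a ratio in every pool, 15.4% had groups that did not overlap, so 1 of 9 is near the background. The ratio of Krt8 averaged 0.874 ± 0.126 in CM-KO and 0.769 ± 0.111 in WT hearts (SD, n = 3 each), with an occupancy estimate of 0.16 (95% interval -0.15 to 0.47, adjusted p = 0.998, edgeR). The higher Krt8 footprints thus stood beside higher Krt8 RNA, and no further rise in occupancy was detectable.

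**Figure D4:**
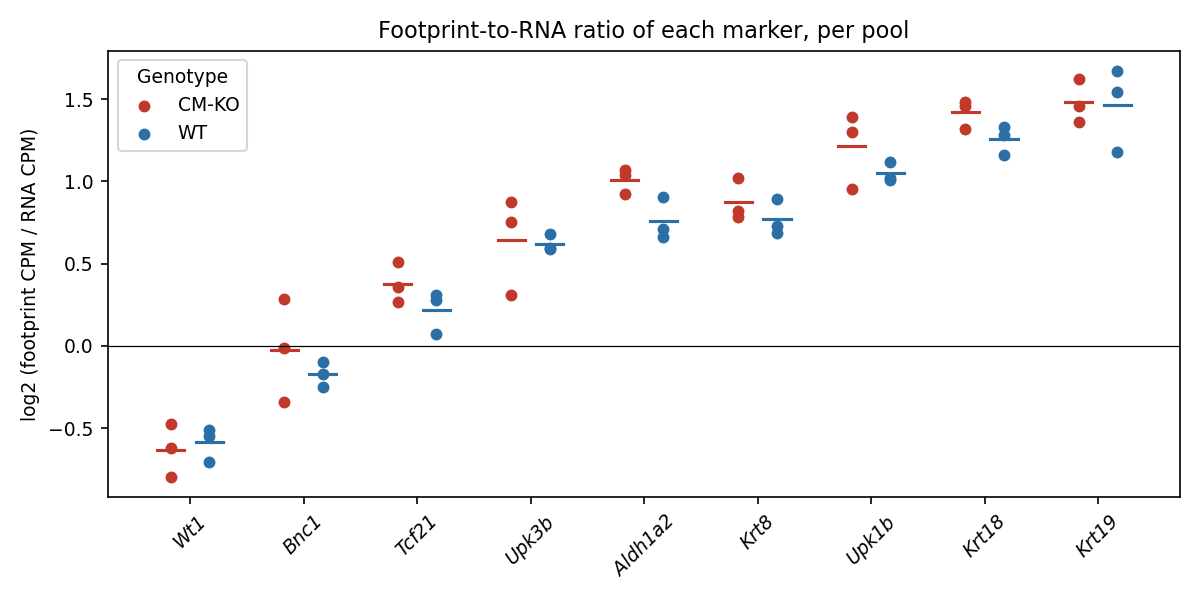
Log2 ratio of footprint CPM to RNA CPM of the 9 markers in each pool, CM-KO left of WT, with a bar at each mean and genes ordered by the WT mean. Wt1 and Bnc1 lie below 0 in WT hearts, Krt18 and Krt19 above 1, and the Aldh1a2 groups do not overlap, as for 15.4% of all genes.

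Other genes of the epicardial layer gave no call. All 31 genes of a wider epicardial list were tested in RNA and 30 in footprints and occupancy, and none was called in either direction in the 3 comparisons. Over all genes tested, 4.37% were called in RNA, 0.23% in footprints and 0.479% in occupancy. No call in a list of this length is thus near the background. Their RNA estimates ran from -0.40 to 0.25 with a median of -0.02. Igfbp5 and Gata4 had the most RNA among them. Igfbp5, a binding protein for insulin-like growth factors, was at 1127, 1070.0 and 1057 CPM in CM-KO pools and at 1173, 1426 and 1357 CPM in WT pools. Its CM-KO values were all lower than its WT values (log2 fold change -0.28, adjusted p = 0.114, edgeR). Of the same list, Cav1 and Rspo1 also had all CM-KO pools below the WT pools in RNA. Podxl, Itga4 and Cpe had all CM-KO pools above them. Over all genes tested in RNA, 21.7% had groups that did not overlap, and the share in this list was not tested. Gata4, a zinc-finger factor of cardiac and epicardial cells, was at 523.6, 528.7 and 477.9 CPM in CM-KO pools and at 500.1, 481.8 and 495.2 CPM in WT pools. Tbx18, a T-box factor of the epicardium named here after its values had been seen, was at 153.9, 131.0 and 133.1 CPM in CM-KO pools and at 136.2, 131.6 and 131.0 CPM in WT pools, giving a log2 fold change of 0.07 (adjusted p = 0.804, edgeR).

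Of 23 listed signals and receptors exchanged between epicardium and myocardium, 21 were tested in RNA, and 1 rose and none fell. Igf2 was not analysed here. The gene that rose was Pdgfb, a platelet-derived growth factor made by endothelial cells and platelets. Pdgfb RNA was at 10.84, 10.66 and 13.78 CPM in CM-KO pools and 8.759, 6.168 and 5.838 CPM in WT pools, without overlap (log2 fold change 0.77, SE 0.18, adjusted p = 0.0358, edgeR). Its footprint log2 fold change was 1.06 (adjusted p = 0.231, edgeR). Of 22 simple-epithelium genes, 19 were tested, and 1 rose in RNA and none fell. That gene was Perp, a desmosomal membrane protein and p53 target, at 52.12, 54.97 and 47.49 CPM in CM-KO pools and 32.34, 31.38 and 39.87 CPM in WT pools (log2 fold change 0.57, SE 0.10, adjusted p = 0.00925, edgeR). Perp footprints did not go the same way as its RNA, with a log2 fold change of -0.28 that did not pass the test (adjusted p = 0.754, edgeR). The medians of the signal and simple-epithelium lists in RNA were -0.01 and -0.02. Their shares of genes that rose in RNA, 1 of 21 and 1 of 19, are near the 3.57% called as higher over all genes tested. Summed RNA of the signal list overlapped. That of the simple-epithelium list did not, at 1326 to 1418 CPM in CM-KO and 1199 to 1215 CPM in WT pools. Its footprint sums overlapped. Dsp, Tjp1 and Plec, with the most RNA of that list, had all CM-KO pools above the WT pools in RNA. None of them was called (adjusted p = 0.0546, 0.273 and 0.131, edgeR). In RNA 21.7% of all genes tested had groups that did not overlap. Krt7, the other type II simple keratin on the list, had an RNA log2 fold change of 0.14 (adjusted p = 0.721, edgeR). The table holds 23 keratin genes, 9 of them with values in all pools, and Krt8, Krt18 and Krt19 made up 77.5% of all keratin RNA counts.

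Markers of other cell types were summed beside these results. None of the 18 tested hepatic and yolk sac genes was called in RNA, but their median log2 fold change was -0.74, and their summed RNA level ran from 144.8 to 469.5 CPM in CM-KO pools and from 213.9 to 584.1 CPM in WT pools. Of the 21 listed genes, 18 had values in all 6 pools, with Alb RNA at 1.788 to 20.21 CPM in CM-KO and 4.177 to 23.6 CPM in WT pools. Dab2, the most abundant of them after Afp, is an endocytic adaptor and was at 63.58 to 77.68 CPM in CM-KO and 70.05 to 75.66 CPM in WT pools. The hepatic sum was lowest in CM-KO pools 1 and 2 and WT pool 1. With the Afp level as a covariate Krt8 was called in neither assay. Its estimate was then 0.41 in RNA (adjusted p = 0.108, edgeR) and 0.49 in footprints (adjusted p = 0.122). The part of hepatic and yolk sac transcripts in the Krt8 result was not tested further. Summed RNA of the 10 endocardial genes ran from 1487 to 1708 CPM in CM-KO and from 1439 to 1834 CPM in WT pools, and that of the 11 mesenchymal genes from 2060 to 2329 and from 1933 to 2266 CPM. No gene of either list was called. In RNA 4.37% of all genes tested were called, so no call in lists this short is near the background. Npr3 and Tek had the most RNA of the endocardial list, at 257.9 to 342.2 and 209.7 to 265.2 CPM in CM-KO pools and at 282.2 to 341.8 and 209.8 to 264.6 CPM in WT pools. Vim and Col3a1 led the mesenchymal list, at 1046 to 1108 and 328.3 to 427.9 CPM in CM-KO pools and at 970.8 to 1049 and 272.3 to 389.0 CPM in WT pools. All 4 genes had overlapping groups. Of the 10 cardiomyocyte genes, 2 rose in RNA (Nkx2-5 by 0.59 and Nppa by 0.51 on the log2 scale, adjusted p = 0.018 and 0.00554, edgeR) and Myl2 fell by 0.51 (adjusted p = 0.0154), and their summed RNA ran from 11360 to 12350 CPM in CM-KO and from 11220 to 12920 CPM in WT pools. The summed RNA of the markers themselves ran from 503.5 to 532.3 CPM in CM-KO pools and from 450.2 to 531.2 CPM in WT pools, with overlap.

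The mean profile of the 9 markers over the 6 RNA libraries was compared with 12202 other genes. Wt1 (r = 0.884) and Aldh1a2 (r = 0.829) were most like it among the markers, and Krt19 (r = 0.403) and Krt8 (r = 0.434) least. Each marker was itself part of the profile, which raises its r, so the r values of the markers only order them. The non-member genes most like it were Erich1 (r = 0.977), Lypd6 (0.974), Lap3 (0.971), Jak3 (0.971) and Pdzd2 (0.965). These are Pearson correlations over 6 libraries that share genotype and pool, given as a description. All 5 genes spanned a narrow range, with Lypd6 for example at 50.5, 49.4 and 47.8 CPM in CM-KO pools and 49.7, 48.5 and 47.5 CPM in WT pools.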

How the data were processed

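RNA and ribosome footprints were sequenced from the same pools of hearts. Per the series' design text, total RNA was heat-fragmented for the RNA libraries or digested with RNase I for the footprint libraries, ribosomal RNA was depleted, and genes were counted against mm39 by a pipeline of the sequencing provider. No source used here names the counting annotation or strand setting. Raw counts per gene and library were used as deposited; a pool is blank for a gene where neither assay exceeded 10 counts. The authors also deposited RPM values and footprint-to-RNA ratios made from these counts, per the file headers, which were not tested here. The authors' deposited table also gives log2 fold changes and adjusted p-values of their own comparisons; these are named as such where printed.

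Of the genes in the table, the 17165 filled in every pool entered the fits. edgeR 4.0.16 (R 4.3.3) with TMM scaling, filterByExpr (minimum count 10, minimum total 15) and robust quasi-likelihood F-tests was fitted to the 6 libraries of each assay; p-values were adjusted by Benjamini-Hochberg over 17147 genes in RNA and 15249 in footprints. Occupancy was the interaction of genotype and assay over 12 libraries. Levels are CPM on TMM-scaled library sizes within an assay, and levels per kilobase divide by the GENCODE canonical transcript (RNA) or coding length (footprints). Intervals are at 95%. The fits were tested on simulated counts. Alternatives were DESeq2 1.42.0, upper quartile scaling, no filter, blanks as 0, each pool left out, CM-KO pools 1 and 2 left out, Afp as a covariate, all libraries in one model and a replicate block, with Egln3 as a covariate added after seeing the data. Members, gene lists and settings were chosen with earlier results of these data known. All 10 markers are named. Of each other list, genes called in any comparison are named, or the 2 highest in RNA where none was called. Tbx18, Krt7, Alb, Dsp, Tjp1, Plec, Cav1, Rspo1, Podxl, Itga4, Cpe and the Krt19-like genes were added after their values had been seen. Ratios of markers within a library were tested by exact permutation over pools. No label says that replicate numbers pair CM-KO with WT pools, so the main fits held no replicate block. A first promoter window, from the GENCODE start, held no TATAAA for any marker and was replaced by the RefSeq table's.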

Additional observations from a re-analysis of the deposited data

How the results depend on the processing

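The count of called markers was 1 in RNA and 1 in footprints. In RNA it fell to 0 with upper quartile scaling, with blanks read as 0, without both CM-KO pools with Y-linked reads, with Afp or Egln3 as a covariate and with all 12 libraries in one model. In footprints it fell to 0 without the pools with Y-linked reads and with either covariate. With 1 pool left out it ran from 0 to 1 in both assays, and in occupancy it was 0 in all 14 alternatives. The cause of these changes was not tested.

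The RNA estimate of Aldh1a2 (0.01) turned to -0.0022 with DESeq2, -0.042 with upper quartile scaling, -0.015 with blanks as 0, -0.23 without the pools with Y-linked reads, -0.058 with Afp and -0.0041 with all libraries, and ran from -0.12 to 0.11 with 1 pool left out. That of Upk3b (0.03) turned to -0.012 with upper quartile scaling, -0.15 without the pools with Y-linked reads and -0.031 with Afp, and ran from -0.026 to 0.12 with 1 pool left out. Wt1 RNA turned to -0.10 without the pools with Y-linked reads. Egln3 as a covariate turned RNA of Krt18 to -0.012 and of Krt19 to -0.081, footprints of Wt1 to -0.057, Tcf21 to -0.041, Upk3b to -0.012 and Bnc1 to -0.070, and occupancy of Wt1 to -0.077 and of Upk3b to -0.0041. Since Egln3 was chosen to match Krt19, the Krt19 value follows from that choice. Afp as a covariate turned footprints of Wt1 to -0.040, Tcf21 to -0.0047 and Upk3b to -0.0059. Occupancy of Wt1 turned to -0.013 with DESeq2 and -0.018 with upper quartile scaling. With 1 pool left out, footprints ran from -0.050 to 0.14 for Wt1, -0.017 to 0.12 for Tcf21, -0.045 to 0.18 for Upk3b and -0.050 to 0.090 for Bnc1, and occupancy from -0.16 to 0.11 for Wt1, -0.036 to 0.27 for Upk3b and -0.066 to 0.21 for Krt19. None of these estimates was called in any of these fits.

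Over all genes, 750 were called in RNA (126 to 960 over the alternatives), 35 in footprints (1 to 203) and 73 in occupancy (5 to 248).

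The replicate block gave 0 called markers in RNA (Krt8 0.40, adjusted p = 0.118, edgeR), 1 in footprints and 0 in occupancy, and an Aldh1a2 RNA estimate of -0.0035. It called 367 genes in RNA, 203 in footprints and 198 in occupancy. Deviations of CM-KO and WT pools with the same number correlated at -0.353, 0.124 and -0.574 in RNA over 12636 genes. Those of pools with different numbers correlated at -0.488 to 0.616 in RNA. In footprints, pools with the same number correlated at 0.524, 0.279 and 0.095, against -0.455 to 0.359 for pools with different numbers. No label pairs pools of the genotypes by number, and a footprint batch shared by number was not tested. In occupancy the block joins the RNA and footprint library of the same hearts, and it changed no marker's call. The RNA and footprint deviations of the same pool correlated at -0.322, 0.23 and 0.359 in CM-KO pools 1 to 3. In WT pools 1 to 3 they correlated at 0.641, -0.0427 and 0.516.

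Depth limits Msln, which had at most 21 counts in a library, and footprint tests in general, whose intervals had a median half-width of 0.317 log2 units against 0.232 in RNA. Intervals rest on 3 pools per genotype.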
